A study of Mus musculus with 4 samples.

Results

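The genes described here encode the beta subunits of the sodium-potassium pump (Atp1b1, Atp1b2 and Atp1b3) and 4 of its small regulators (Fxyd1, Fxyd5, Fxyd6 and Fxyd7). They were taken by gene name from an expression table of 46072 genes, which holds all 7, once each. The table covers 4 RNA-seq libraries of poly(A) RNA. All were made from the brain vessels of wild-type mice without treatment, and the labels call the cells endothelial. Per the series title the brain was fixed by perfusion and the cells were picked by antibody staining and laser capture, that is, by cutting stained structures from tissue sections under a microscope. The sources used here do not give strain, age or sex, nor whether each library came from its own animal. All 4 libraries form 1 group, here replicates 1 to 4. Comparisons are therefore between genes within a library, and a p-value reflects the spread of these 4 samples alone, which may be technical.

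The sodium-potassium pump is a P-type ATPase of the plasma membrane that exports sodium and imports potassium at the cost of ATP. Its catalytic alpha subunit needs a glycosylated beta subunit to fold and to reach the cell surface, and a FXYD protein, a single-pass membrane protein, can join the pair and tune its affinity for ions. In the brain the pump restores ion gradients after neuronal firing, clears potassium around astrocytes, drives fluid secretion in the choroid plexus and powers sodium-coupled transport across the capillary wall.

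The FXYD family is named after a signature of phenylalanine, any residue, tyrosine and aspartate at the start of the membrane segment. The coding sequence of that signature is shown for the 4 FXYD genes because it is the feature that makes them a family. The stretches were read from GENCODE M21 transcripts (GRCm38), with the 12 bases of the signature in capitals and 12 bases on either side in lower case.
Fxyd1: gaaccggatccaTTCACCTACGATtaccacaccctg
Fxyd5: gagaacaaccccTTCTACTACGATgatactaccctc
Fxyd6: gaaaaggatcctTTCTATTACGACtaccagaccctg
Fxyd7: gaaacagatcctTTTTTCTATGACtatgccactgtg
The first and last base lie at chr7:31053461-31053914 (minus strand), chr7:31035270-31035407 (minus), chr9:45390651-45390790 (plus) and chr7:31045014-31047394 (minus), in the order shown. Each stretch is exonic and coding and is split by an intron, which falls after base 22 of the 36 in all 4 genes, between the first and the second base of the aspartate codon. The phenylalanine is codon 29 in Fxyd1 and Fxyd6, codon 18 in Fxyd7 and codon 136 in Fxyd5, whose protein carries a long extracellular part. By its letters alone the signature is common, since 644 of 21578 mouse coding sequences (2.98%) hold it, and all 7 genes named Fxyd1 to Fxyd7 do. Atp1b1, Atp1b2 and Atp1b3 do not hold it in the transcript read for each.

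Values are FPKM as the authors deposited them, that is, fragment numbers divided by the length of the transcript and the size of the library. They sum to between 448678 and 482882 per library. FPKM is per length, and levels are set side by side between genes on that basis. RNA quality and the coverage of reads along transcripts were not examined. Any remaining effect of transcript length on the order, ratios and shares of genes was not tested. The depth of sequencing is unknown, and neither counting intervals nor floors can be given. Differences are on the log2(FPKM + 1) scale, which understates fold changes of low genes. The libraries held the labelled cell type beside others. Of 17 endothelial marker genes 14 lay above 1 FPKM, 1 below and 2 in neither direction. All 10 neuronal, all 10 oligodendrocyte, all 10 astrocyte and all 10 choroid plexus genes lay above, as did 47.7% of all genes tested. The endothelial median level was 5.75 ± 0.645 FPKM (SD, n = 4), against 99.6 ± 3.87 for the neuronal, 85.6 ± 6.75 for the oligodendrocyte and 79.1 ± 5.87 for the astrocyte genes. In such bulk samples, fewer cells of a type and less RNA per cell cannot be told apart, and no value here says which cells a transcript came from.

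All 7 genes lay above the median of the endothelial markers. The mean of Fxyd5 was nonetheless below that of 6 of the 17 single markers, and the means of the other members were above all 17. The 7 genes spanned a wide range, from Atp1b1 at the top to Fxyd5 at the bottom, with a middle group of 4 genes close together. Against 1 FPKM all 7 lay above (limma, Benjamini-Hochberg adjustment over 25206 genes, largest adjusted p = 6.53e-06), where 47.7% of all genes tested did and 40.1% lay below (46.7% and 37.2% with each gene's own variance). Against the endothelial list median of the same library all 7 lay above as well, where 27.2% of all genes did and 65% lay below. The median of the 7 differences was 3.78 on the log2(FPKM + 1) scale, against -1.48 over all genes tested. In that comparison every gene is set against the same 4 reference values, which makes the moderated p-values too small. With each gene's own variance in their place, an alternative chosen after seeing the data, all 7 still passed (largest adjusted p = 0.0114, for Fxyd5), beside 25.6% of all genes above and 62.4% below.

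**Figure D1:**
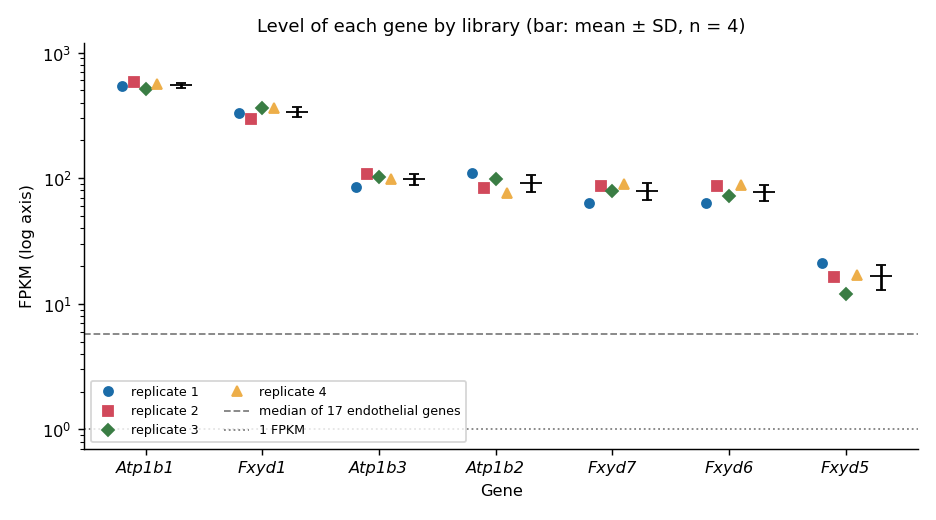
FPKM of the 7 genes (log axis) in the 4 libraries, with a bar for the mean ± SD (n = 4); the dashed line is the median of 17 endothelial genes and the dotted line 1 FPKM. Every point lies above the dashed line at 5.75 FPKM, and 4 genes sit close together between 63.1 and 109 FPKM.

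Atp1b1, the most widespread beta subunit and the main one of neurons and of many epithelia, was the highest of the 7. It measured 538, 579, 516 and 561 FPKM in replicates 1 to 4, or 548 ± 27.6 (SD, n = 4), and ranked 80th of 25206 genes above 0 in any library. It was also the steadiest, with a coefficient of variation of 5.04%, where the median of 5754 genes at 10 FPKM or more was 11.8%. Fxyd5 at 22.7%, Atp1b2 at 16.2%, Fxyd7 at 15.1% and Fxyd6 at 14.8% varied more than that median. The mean of Atp1b1 lay 6.35 ± 0.08 (SE) above the endothelial median on the log2(FPKM + 1) scale. The gene (ENSMUSG00000026576, chr1:164437109-164458355, GRCm38) overlaps Nme7 on the other strand by 617 bases at its 3′ end. Nme7, a nucleoside diphosphate kinase gene, measured 8.35 ± 1.57 FPKM. The strand setting is not given in the sources used here, so reads of that stretch cannot be assigned, and 15.8% of the 50-base words of Atp1b1 transcripts occur in Nme7 in reverse.

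Atp1b2, the adhesion molecule on glia, is the beta subunit best known from astrocytes. It measured 109, 83.5, 98.8 and 76.2 FPKM in replicates 1 to 4, a mean of 91.9 ± 14.9 (SD, n = 4; ENSMUSG00000041329, chr11:69599736-69605942). Replicates 1 and 3 were higher than replicates 2 and 4.

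Atp1b3, a beta subunit found in many tissues, measured 84.6, 108, 102 and 98.4 FPKM, a mean of 98.3 ± 9.99 (SD, n = 4; ENSMUSG00000032412, chr9:96332655-96364442). Its lowest library, replicate 1, was the one in which Atp1b2 was highest. Transcripts of Atp1b3 share 9.71% of their 50-base words with Gm1848, a gene listed at 0, 0.112, 0 and 0.145 FPKM.

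The 3 beta genes together summed to 739 ± 22.9 FPKM (SD, n = 4). Atp1b1 made up 73.5%, 75.1%, 71.9% and 76.3% of that sum in replicates 1 to 4, or 74.2% ± 1.89. Atp1b3 held 13.3% ± 1.23 and Atp1b2 12.5% ± 2.23. Atp1b1 was 6.11 ± 1.22 times as high as Atp1b2 and 5.61 ± 0.565 times as high as Atp1b3, and its range overlapped neither. Atp1b2 and Atp1b3 could not be ordered. Atp1b3 minus Atp1b2 was -0.37, 0.37, 0.05 and 0.36 in replicates 1 to 4, a mean of 0.10 (95% interval -0.45 to 0.66) on the log2(FPKM + 1) scale (limma with each gene's own variance, adjusted p = 0.593).

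Among the FXYD genes, Fxyd1 stood far above the rest. It encodes phospholemman, a phosphorylated regulator known from heart muscle and, in the brain, from astrocytes and the choroid plexus. It measured 331, 296, 362 and 365 FPKM in replicates 1 to 4, a mean of 338 ± 32.3 (SD, n = 4; ENSMUSG00000036570, chr7:31051678-31057199), and ranked 161st of 25206 genes. Replicate 2 was the lowest. It was 4.33 ± 0.782 times as high as Fxyd7, 4.46 ± 0.820 times as high as Fxyd6 and 21.3 ± 6.30 times as high as Fxyd5, with no overlap. Its longest annotated transcript has 668 bases, and it exceeded 97.8% of 1433 detected genes within 20% of that length.

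Fxyd6, phosphohippolin, a regulator known from neurons, and Fxyd7, a FXYD protein known chiefly from the brain, were measured at nearly the same level. Fxyd6 stood at 63.9, 86.3, 71.8 and 87.5 FPKM in replicates 1 to 4, a mean of 77.4 ± 11.5 (SD, n = 4; ENSMUSG00000066705, chr9:45370185-45396159). Fxyd7 stood at 63.1, 86.6, 78.6 and 90.3 FPKM, a mean of 79.7 ± 12.1 (ENSMUSG00000036578, chr7:31042513-31051467). Both were lowest in replicate 1 and highest in replicate 4. Fxyd7 minus Fxyd6 was -0.02, 0.01, 0.13 and 0.05 in the 4 libraries, a mean of 0.04 (95% interval -0.06 to 0.14; limma with each gene's own variance, adjusted p = 0.297), and the SD of 0.06 was the smallest of the 21 pairs. The pair lies on different chromosomes and shares no 50-base word.

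Fxyd5, dysadherin, is a FXYD protein with a large glycosylated extracellular part that is known to weaken cell adhesion. It was the lowest of the 7, at 21.3, 16.3, 12.1 and 16.9 FPKM in replicates 1 to 4, a mean of 16.6 ± 3.77 (SD, n = 4; ENSMUSG00000009687, chr7:31032722-31042481). Its coefficient of variation of 22.7% was the largest of the 7, with replicate 1 highest and replicate 3 lowest. It was the member nearest to the endothelial median, 1.37 ± 0.22 (SE) above it, and ranked 4062nd of 25206 genes. The gene hosts the microRNA gene Mir7050, listed at 0 in 3 libraries and at 0.00519 FPKM in replicate 2. Of the 50-base words of Fxyd5 transcripts, 0.27% occur in Mir7050 or, in reverse, in Pld1, a gene at 1.51 ± 0.499 FPKM.

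The 4 FXYD genes summed to 512 ± 37.4 FPKM (SD, n = 4), of which Fxyd1 held 66.1% ± 3.85, Fxyd7 15.5% ± 1.97, Fxyd6 15.1% ± 2.06 and Fxyd5 3.28% ± 0.890. The summed beta genes stood at 1.53, 1.59, 1.37 and 1.32 times the summed FXYD genes in replicates 1 to 4, or 1.45 ± 0.130. By FPKM the summed beta genes thus exceeded the summed FXYD genes in every library, and in each family 1 gene held most of the sum. The part of transcript length in that ratio was not tested.

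**Figure D2:**
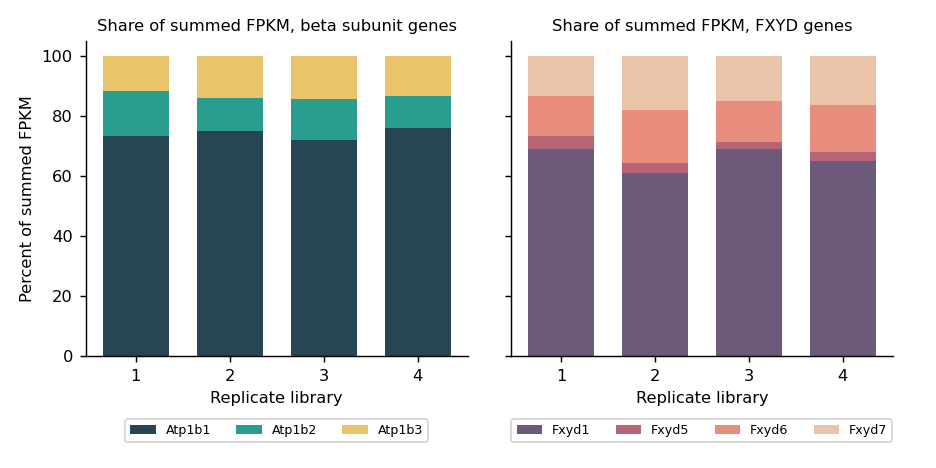
Percent of summed FPKM held by each beta subunit gene (left) and each FXYD gene (right) in the 4 replicate libraries. Atp1b1 fills 71.9% to 76.3% of the beta bars and Fxyd1 61.0% to 69.1% of the FXYD bars.

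In order of mean level the genes ran Atp1b1, Fxyd1, Atp1b3, Atp1b2, Fxyd7, Fxyd6 and Fxyd5. Of the 21 pairs 17 differed (limma, adjusted over all genes of each comparison). The shared reference makes the moderated p-values too small here as well, and with each gene's own variance the same 17 differed. Of all genes tested, 99.9% differed from Atp1b1, 99.7% from Fxyd1, 99% from Atp1b3, 98.6% from Fxyd6, 98.1% from Atp1b2 and 92.4% from Fxyd5. With each gene's own variance the shares were 99.9%, 99.6%, 98.6%, 97.9%, 97.2% and 89% in the same order, so a difference is the usual outcome over all genes. Those shares take in the 40.1% of genes that lay below 1 FPKM. They therefore do not say how often genes at a like level differ. The 4 pairs that did not differ were Atp1b2 with Atp1b3, Fxyd6 and Fxyd7, and Fxyd6 with Fxyd7. Of the neighbours in that order, Atp1b3 with Atp1b2, Atp1b2 with Fxyd7 and Fxyd7 with Fxyd6 therefore did not differ beyond their spread. Fxyd7 minus Atp1b2 was -0.20 (95% interval -0.92 to 0.52) and Fxyd6 minus Atp1b2 was -0.24 (95% interval -0.95 to 0.46), both on the log2(FPKM + 1) scale and too wide to show that the genes are alike. Without replicate 4 the latter pair passed in the moderated limma fit (log2 difference -0.39, adjusted p = 0.0471). The same 17 pairs had 1 direction in 4 of 4 libraries in an exact 2-sided sign-flip test, whose smallest possible p with 4 libraries is 0.13 (rounded).

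Fxyd1 exceeded Atp1b3, the next gene down, 3.47 ± 0.514 fold, and Atp1b1 exceeded Fxyd1 1.64 ± 0.230 fold (SD, n = 4), with no overlap in either case. Atp1b3 lay above Fxyd7 in 4 of 4 libraries although their ranges overlap, by 0.31 ± 0.07 (SE) on the log2(FPKM + 1) scale (adjusted p = 0.0185 with each gene's own variance in a limma fit). Likewise it lay above Fxyd6 in 4 of 4, by 0.35 ± 0.07 (adjusted p = 0.0166 in the same fit).

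Beside the marker lists of brain cell types, the genes fell on 3 levels. Atp1b1 and Fxyd1 exceeded the median of all 9 lists in every library. Atp1b3, Atp1b2, Fxyd7 and Fxyd6 lay close to the neuronal, oligodendrocyte and astrocyte medians. Fxyd5 lay between the choroid plexus median of 24.3 ± 5.40 FPKM and the endothelial one, and above the fibroblast, smooth muscle and pericyte medians of 5.71 ± 0.861, 3.84 ± 0.846 and 3.40 ± 0.318 (SD, n = 4). A level near that of a marker list does not assign a gene to that cell type.

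**Figure D3:**
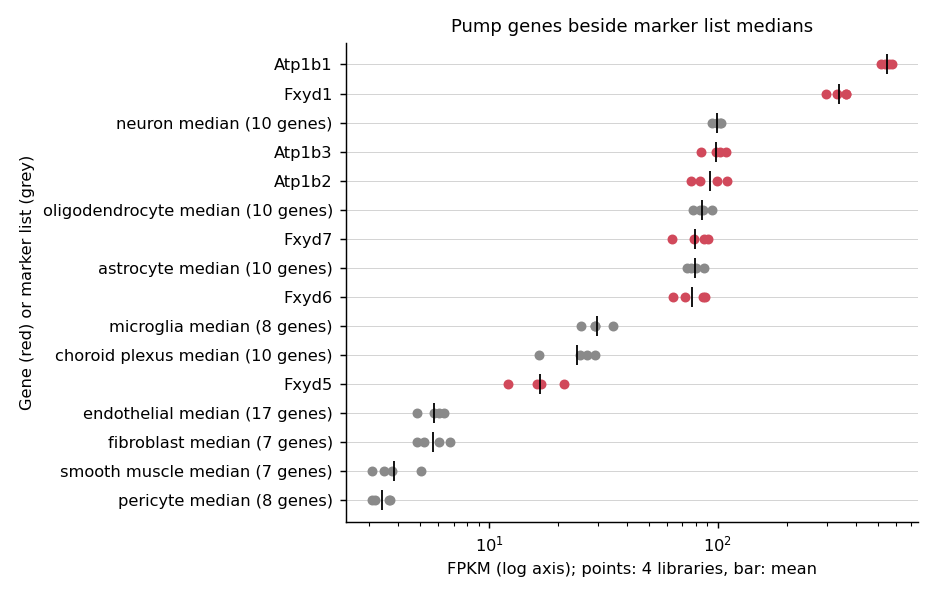
FPKM (log axis) of the 7 genes in red and of the medians of 9 cell type marker lists in grey, 1 point per library and a bar at the mean. Atp1b1 and Fxyd1 lie to the right of all lists, 4 genes lie close to the neuronal, oligodendrocyte and astrocyte medians, and Fxyd5 lies between the choroid plexus and endothelial medians.

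Likeness of level was measured as the root mean square difference in log2(FPKM + 1) over the 4 libraries, among all genes of the marker and pathway lists. The closest to Fxyd5 were Cldn5, the main claudin of brain endothelium, at 0.32, the choroid plexus transcription factor gene Otx2 at 0.33 and the pericyte gene Rgs5 at 0.35. For Fxyd6 they were the myelin genes Mag and Mog at 0.13 and 0.16 and the endothelial gene Ly6c1 at 0.21. For Fxyd7 they were the same 3 genes, Mog at 0.17, Mag at 0.18 and Ly6c1 at 0.25. Atp1b2 lay nearest to Slc1a3, an astrocyte glutamate transporter, at 0.15, then to Mal at 0.21 and Syt1 at 0.22. Atp1b3 lay nearest to the neuronal tubulin gene Tubb3 at 0.09, then to Slc1a3 at 0.19 and Syt1 at 0.21. Atp1b1 had Aldoc at 0.26 and Enpp2 at 0.47, and Fxyd1 had Syp at 0.40, Aldoc at 0.55 and Nefl at 0.78. These are genes of several cell types at a like level, and with 4 libraries of 1 group they say nothing of shared control.

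Fxyd1, Fxyd7 and Fxyd5 follow each other on the minus strand of chromosome 7. Their bounds are taken here over all annotated transcripts of each gene. By these bounds Fxyd7 starts 210 bases after the end of Fxyd1, and Fxyd5 starts 31 bases after the end of Fxyd7. The Fxyd5 transcript whose signature is shown starts further on. It starts at 15.081 kb from the 5′ end of Fxyd1, where Fxyd7 ends at 14.686 kb. The short gap is shown because it holds all the sequence between the annotated bounds of a gene at 79.7 and a gene at 16.6 FPKM. It was read from RefSeq (GRCm38.p6, chr7:31042472-31042522, minus strand), with the last 10 bases of Fxyd7 and the first 10 of Fxyd5 in capitals and the 31 bases between them in lower case.
Fxyd7 to Fxyd5: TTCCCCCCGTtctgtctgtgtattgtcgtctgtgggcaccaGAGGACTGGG
Along the direction of transcription the level fell from Fxyd1 at 338 to Fxyd7 at 79.7 and Fxyd5 at 16.6 FPKM, in that order in 4 of 4 libraries. Fxyd7 exceeded Fxyd5 5.04 ± 1.49 fold (SD, n = 4), with a range over libraries of 2.97 to 6.52. The 3 genes did not share a pattern over the libraries. Replicate 1 held the lowest Fxyd7 value and the highest Fxyd5 value, and replicate 2 the lowest Fxyd1 value.

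**Figure D4:**
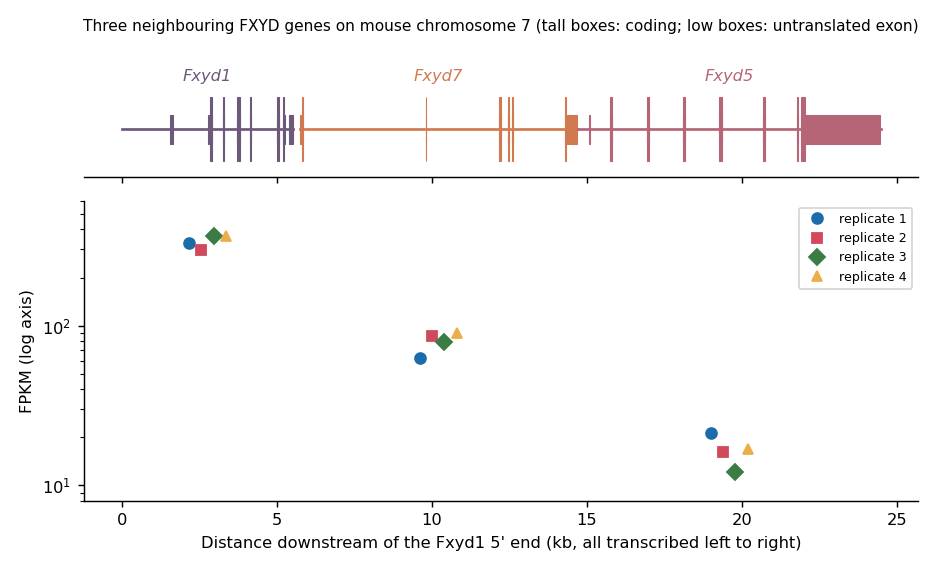
Map of Fxyd1, Fxyd7 and Fxyd5 by distance (kb) from the 5′ end of Fxyd1, with boxes for the exons of 1 transcript per gene, above their FPKM (log axis) in the 4 libraries. By their annotated bounds the 3 genes stand nearly end to end, and their levels step down from left to right, with no overlap between genes.

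Between libraries, 4 of the 7 genes had a larger SD of log2(FPKM + 1) than the median gene at 10 FPKM or more. The highest library stood 1.76 times above the lowest for Fxyd5, 1.43 times for Atp1b2 and for Fxyd7 and 1.37 times for Fxyd6, where the median gene at that level had 1.30. Fxyd6 and Fxyd7 lay at -0.26 and -0.32 from their means in replicate 1 and at 0.19 and 0.19 in replicate 4. Atp1b2 went the other way, at 0.26 in replicate 1 and -0.25 in replicate 4. Atp1b3 lay at -0.21, 0.14, 0.06 and 0.01 in replicates 1 to 4. Genes at 10 FPKM or more were also divided into 4 length classes by their longest transcript. Those with the longest transcripts (1435 genes, 3909 bases and up) had median deviations of 0.09 in replicate 1 and -0.09 in replicate 4, and those with the shortest (1437 genes, up to 1713 bases) -0.11 and 0.11. The class of Atp1b2 (2728 to 3908 bases) had -0.0033 and -0.029, that of Fxyd6 (1716 to 2727 bases) -0.075 and 0.025, and Fxyd7, with 693 bases, belongs to the shortest class. The part of transcript length in these differences was not tested.

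Fxyd1 lay at -0.19 in replicate 2, the library in which the choroid plexus list had a median deviation of -0.42. The pericyte and fibroblast lists were low there too, at -0.22 and -0.12. They had 6 of 8 and 6 of 7 genes above 1 FPKM, none at 0 in all libraries, and sums of 93.6 to 106 and 81.9 to 109 FPKM. The other lists went the other way in replicate 2, with the astrocyte and endothelial lists at 0.07 and the neuronal list at 0.12. The oligodendrocyte, smooth muscle and microglial lists lay at 0.19, 0.20 and 0.27 there. All 10 genes of the choroid plexus list lay above 1 FPKM, none was at 0, and they summed to between 12270 and 17968 FPKM per library, with Ttr, which encodes transthyretin, and Enpp2 highest at 14493 ± 2381 and 726 ± 114 FPKM (SD, n = 4). Fxyd5 lay at 0.36 in replicate 1 and -0.41 in replicate 3, in which the endothelial list lay at -0.07 and -0.04. The pericyte and astrocyte lists lay at 0.17 and 0.08 in replicate 1 and at -0.05 and -0.03 in replicate 3. The choroid plexus and fibroblast lists lay at 0.12 and 0.08 in replicate 1 and at 0.15 and 0.17 in replicate 3. The smooth muscle, neuronal and oligodendrocyte lists lay at 0.02, -0.01 and -0.07 in replicate 1 and at -0.06, -0.07 and -0.10 in replicate 3. All 8 microglial genes lay above 1 FPKM, with 217 to 318 FPKM in sum, and their list lay at -0.29 in replicate 3 but at 0.02 in replicate 1. The part of these cell types in the members' differences was not tested.

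**Figure D5:**
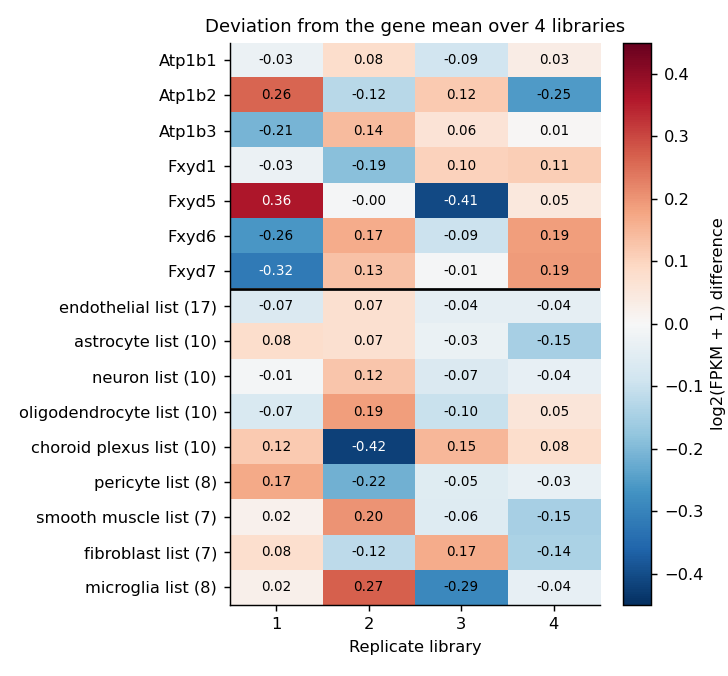
Deviation of log2(FPKM + 1) from the mean over 4 libraries, for each of the 7 genes (above the line) and as the median of each marker list (below it, number of genes in brackets). Fxyd6 and Fxyd7 are low in replicate 1, where Atp1b2 is high, and the choroid plexus list is low in replicate 2 at -0.42.

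The rest of the pump pathway, 31 genes in 5 lists, had 20 above and 6 below 1 FPKM, 3 in neither direction and 2 listed at 0 (limma, adjusted over all genes), where 47.7% of all genes lay above and 40.1% below. With FPKM rescaled to the same fixed sum in every library, 3 in place of 6 lay below. That sum was higher than the summed FPKM of every library, so all values rose while the reference stayed at 1 FPKM. The fixed sum moved the median difference of all genes from 1 FPKM by 0.73 on the log2 scale. Upper quartile scaling moved it by 0.0005 and left 6 below. Calls lost with the fixed sum therefore do not speak to differences in scale between libraries. The other beta and FXYD genes were low. Fxyd2, the gamma subunit of the kidney pump, measured 2.08 ± 0.509 FPKM (SD, n = 4) and lay above 1 FPKM, while Fxyd3, known from epithelia and tumours, at 0.408 ± 0.245 lay below it, a call lost with the fixed sum (adjusted p = 0.511). Fxyd4, a colon and kidney regulator, was listed at 0, 0.304, 0 and 0.180 FPKM and lay below, and Atp1b4, a beta-like protein of muscle, was listed at 0 in all 4 libraries. Fxyd1 was thus 338 and Fxyd2 2.08 FPKM in the same libraries.

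Of the proton-potassium pumps of stomach and colon, Atp4b was listed at 0 throughout, and Atp4a and Atp12a lay below 1 FPKM. Atp4a was listed at 0, 0.667, 0.299 and 0.257 FPKM and lost its call with the fixed sum (adjusted p = 0.189). Atp12a was listed at 0 in 3 libraries and at 0.152 in replicate 3.

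Of the 4 NKAIN genes, whose proteins bind the beta subunit, 3 lay above 1 FPKM and 1 in neither direction. Nkain4 measured 63.5, 68.4, 57.2 and 64.9 FPKM, 63.5 ± 4.67 (SD, n = 4), far above Nkain1 at 4.56 ± 1.74, Nkain2 at 1.61 ± 0.407 and Nkain3 at 0.670 ± 0.352. Nkain2 lost its call with upper quartile scaling (adjusted p = 0.0555), with its own variance (adjusted p = 0.0601) and without replicate 1, 3 or 4 (limma, adjusted p = 0.122, 0.147 and 0.145).

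The calcium pumps are relatives of the sodium pump. Of their list of 10 genes 8 lay above 1 FPKM, 1 below and 1 in neither direction. Atp2a2, the pump SERCA2 of the endoplasmic reticulum, led at 59.7 ± 12.6 FPKM, followed by Atp2c1 of the Golgi at 29.0 ± 2.49 and the plasma membrane pumps Atp2b1 at 27.1 ± 5.16 and Atp2b2 at 21.3 ± 3.55 (SD, n = 4). Pln, phospholamban, measured 4.52 ± 0.887, Atp2b3, Atp2b4 and Atp2a3 lay between 2.17 and 2.53, and Sln, sarcolipin, at 1.02 ± 0.515 passed in neither direction. Atp2a1, the skeletal muscle pump, lay below 1 FPKM and was listed at 0.250, 0, 0.304 and 0.280. Both Atp1b1 and Fxyd1 exceeded every gene of these lists.

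Of 10 transporters and channels that use or feed the sodium and potassium gradients, 8 lay above 1 FPKM. The glutamate transporters Slc1a3 and Slc1a2 measured 97.7 ± 7.92 and 41.3 ± 5.52 FPKM (SD, n = 4). The potassium-chloride cotransporter Slc12a5 measured 25.1 ± 6.84 and the sodium-potassium-chloride cotransporter Slc12a2 14.5 ± 2.70. The bicarbonate cotransporter Slc4a4 stood at 12.3 ± 2.70, the potassium channel Kcnj10 at 8.31 ± 1.64 and the sodium-calcium exchanger Slc8a3 at 4.01 ± 1.41. Of the other sodium-calcium exchangers, Slc8a1 at 1.05 ± 0.530 passed in neither direction. Slc8a2, at 0.614 ± 0.151, lay below 1 FPKM, but with the fixed sum its log2 difference turned to 0.20 (adjusted p = 0.222). Its call was also lost with a pseudocount of 0.1 (adjusted p = 0.0677), without the filter (adjusted p = 0.0703) and without replicate 1 or 2 (limma, adjusted p = 0.0619 and 0.0622).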

How the data were processed

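Poly(A) RNA from laser capture was sequenced in 4 libraries, and the authors deposited 1 table of FPKM per gene and library. The submitters' processing notes name the build GRCm38 and the tools StringTie 2.2.1, HISAT2 2.2.1, bcl2fastq 2.20 and SAMtools. The sources used here do not give their roles, the annotation release, filters, the strand setting or how multiply matching reads were treated. Per the labels' protocols, libraries were made from enriched mRNA with random priming. FPKM divides by length and mapped total, so a few very high genes lower all others.

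Columns were matched to samples by library name, and 0 columns were left out. The members and lists were chosen with earlier results of these data known. The genes of the catalytic subunit and some single genes of the lists are not reported here by name. Values were analysed as log2(FPKM + 1) with limma 3.58.1 in R 4.3.3 (2-sided, mean-variance trend, Benjamini-Hochberg adjustment, threshold 0.05) over the 25206 genes above 0 in any library. Each gene was tested against 1 FPKM, against the library's median of 17 endothelial genes, and against each member in the same library. Simulated data with known changes were used to test the limma fits. The text names the members, the pathway lists, the 2 highest genes of a marker list where it is discussed, and the 3 genes nearest to each member in level. Mir7050, Nme7, Gm1848 and Pld1, which share sequence with members, were added after their values were seen. Across genes, Pearson's r between libraries was 0.983 to 0.987, and at most 4 genes above 0 had the same value in any pair of libraries, so no library is a copy of another. Positions came from GENCODE M21. Alternatives covered the pseudocount (0.1 and 0.5), filters, scaling, variance model, reference and each library left out. Figures were drawn with matplotlib 3.10.9.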

Additional observations from a re-analysis of the deposited data

How the results depend on the processing

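All 7 genes stayed above 1 FPKM and above the endothelial median under every alternative run, and 17 or 18 of the 21 pairs differed. Against the endothelial median, Fxyd5 ranged from 0.97 (reference mean in place of the median) to 1.54 on the log2 scale. The pathway genes below 1 FPKM numbered 6 with upper quartile scaling, as in the main fit. They fell to 3 with FPKM rescaled to the fixed sum, which raised all values against 1 FPKM. With that rescaling the log2 differences of Nkain3, Slc8a2 and Sln from 1 FPKM turned to 0.23, 0.20 and 0.61. Slc8a1, close to 1 FPKM, turned to -0.048 with a pseudocount of 0.1 and to -0.011 with 0.5. With 1 library left out Slc8a1 ranged from -0.14 (without replicate 1) to 0.13 (without replicate 4) and Sln from -0.17 (without replicate 3) to 0.11 (without replicate 4). The cause of the changes with the pseudocount and with 1 library left out was not tested. No paired analysis was possible because the series has 1 group. FPKM carries no depth, so no precision from counting can be given.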
